A study of Homo sapiens with 18 samples.

Results

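The genes described here are 34 genes of cell-matrix adhesion measured in IMR90 cells, a line of human fetal lung fibroblasts. They were taken by name as a fixed set and comprised 15 integrin chains, the receptors, and 19 genes of the adaptor and signalling proteins that gather at their cytoplasmic side, among 38716 genes listed in every table. Poly(A) mRNA and ribosome-protected fragments (footprints) were sequenced in young cells (low passage, wild type, with no vehicle named in the labels), in old cells (high passage, replicatively senescent) and in low-passage cells treated with ICM. ICM stands for inflachromene, a compound known to bind HMGB1 and HMGB2, which are DNA-bending proteins of chromatin. Each condition had 3 lysates, grown as independent replicates, and each lysate gave 1 footprint and 1 mRNA-seq library, so there were 18 libraries. The cells came from single isolates, so the libraries did not sample different donors, and whether the 3 lysates of a condition differed in more than culture was not given.

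Integrins are heterodimers of an alpha and a beta chain that bind matrix proteins outside the cell and, through their cytoplasmic tails, a layered assembly called the focal adhesion. Talin and the kindlins bind the beta tail and switch the receptor to its active form, the complex of ILK, PINCH and parvin sits next to them, vinculin, alpha-actinin, zyxin and VASP tie the assembly to actin filaments, and paxillin, focal adhesion kinase, SRC and p130Cas relay signals. Fibroblasts depend on these adhesions to spread, to pull on collagen and fibronectin, and to sense stiffness.

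The 9 mRNA-seq libraries held 7902301 to 14144345 reads assigned to the annotated transcript parts of genes and the 9 footprint libraries 46170 to 1718431 reads in coding sequences, a 37.2-fold range. The members took 1.08% to 1.82% of the mRNA-seq reads (112911 to 230732 reads) and 1.59% to 2.40% of the footprints (850 to 37670 reads), so footprint values of rare members rest on few reads. Their share of mRNA-seq reads was 1.52% ± 0.0969 (SD, n = 3) in young, 1.72% ± 0.0926 in old and 1.10% ± 0.0218 in ICM-treated cells. Levels are given as CPM (counts scaled to a common library total) after trimmed-mean scaling of the library sizes. The 10 fibroblast markers summed to 28990 to 32841 CPM in young, 27383 to 30731 in old and 12288 to 12783 in ICM-treated libraries of mRNA-seq, and 8 of the 10 fell with ICM. Of the markers of other cell types, 6 of 7 leukocyte, 5 of 7 epithelial and 3 of 5 endothelial genes averaged under 1 CPM. The sums of these lists therefore rest mainly on the few remaining genes of each. The leukocyte list summed to 19.9 to 22.0 CPM in young, 33.3 to 36.0 in old and 54.5 to 66.9 in ICM-treated libraries, the epithelial list to 299 to 317, 241 to 264 and 44.1 to 50.4, and the endothelial list to 55.3 to 63.6, 94.7 to 107 and 51.9 to 60.3. The 5 smooth muscle markers, which include contractile genes of activated fibroblasts, summed to 3051 to 3565 CPM in young, 5119 to 5266 in old and 282 to 309 in ICM-treated libraries, and all 5 fell with ICM. The part of these marker lists in the results below was not tested. The 4 proliferation markers fell in both conditions, and of the 3 senescence markers the cell cycle inhibitor CDKN1A rose in both while LMNB1 and HMGB2 fell in both.

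In the footprint data 3 libraries stood apart, and these were the ones with the fewest coding reads. Young replicate 1 held 54323, old replicate 2 held 54587 and ICM replicate 3 held 46170, and the next lowest, ICM replicate 2, held 78939. Coding sequence took 34.4% of the footprints of young replicate 1, 15.0% in old replicate 2 and 80.2% in ICM replicate 3. The other footprint libraries had 54.7% to 88.8%. Whether low depth set these libraries apart was not tested. Among 14 genes chosen for being over 16 times higher in ICM-treated cells in mRNA-seq, the footprints of young replicate 1 summed to 1030.0 CPM against 133 and 136 in the other young libraries, and those of old replicate 2 to 1147 CPM against 183 and 168. Among 27 genes as much higher in young than in ICM-treated cells, ICM replicate 3 summed to 1439 CPM against 187 and 409. The footprint results are therefore also given without these 3 lysates. This omission was chosen after seeing these data, from genes that differ between the same conditions. It can favour larger differences between conditions, so the values without the 3 lysates are a description and no independent support.

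In mRNA-seq, most members were lower in ICM-treated than in young cells and higher in old than in young cells. Of the 33 members that passed the low-count filter, 23 fell and 5 rose with ICM at an adjusted p under 0.05 (edgeR, Benjamini-Hochberg over all 13173 genes tested), where 36.1% of all genes tested fell and 34.9% rose. In old against young cells 22 members rose and 6 fell, where 32.4% of all genes rose and 33.7% fell. In the direct comparison 26 members were lower and 4 higher in ICM-treated than in old cells, against 32.6% and 30.7% of all genes. The comparisons with young cells share those libraries. In these bulk libraries fewer cells with a transcript and less of it per cell cannot be told apart.

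With a minimum absolute log2 change of 0.6, 15 members fell and 2 rose with ICM (19.8% and 18.6% of all genes), 6 rose and 1 fell in old cells (15.7% and 16.8%), and 21 were lower and 2 higher in ICM-treated than in old cells (15.3% and 14.1%). The median log2 change over the members tested was -0.54 with ICM and 0.35 in old cells, and -0.89 between ICM-treated and old cells, where the medians over all genes were -0.0070, -0.015 and -0.0080.

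The integrin chains had the larger median changes. The median log2 change of the 14 integrin chains tested was -0.78 with ICM and 0.50 in old cells, with 10 falls and 3 rises in the first and 2 falls and 12 rises in the second. The 19 adaptor and signalling genes had medians of -0.45 and 0.24, with 13 falls and 2 rises with ICM, and 4 falls and 10 rises in old cells. Between ICM-treated and old cells the medians were -1.57 for receptors and -0.64 for adaptors. These medians describe the lists and the difference between them was not tested. ITGA10, the alpha chain of a collagen receptor known from cartilage, was the member that missed the filter, at 0.0848 to 1.20 CPM in all 9 libraries.

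**Figure D1:**
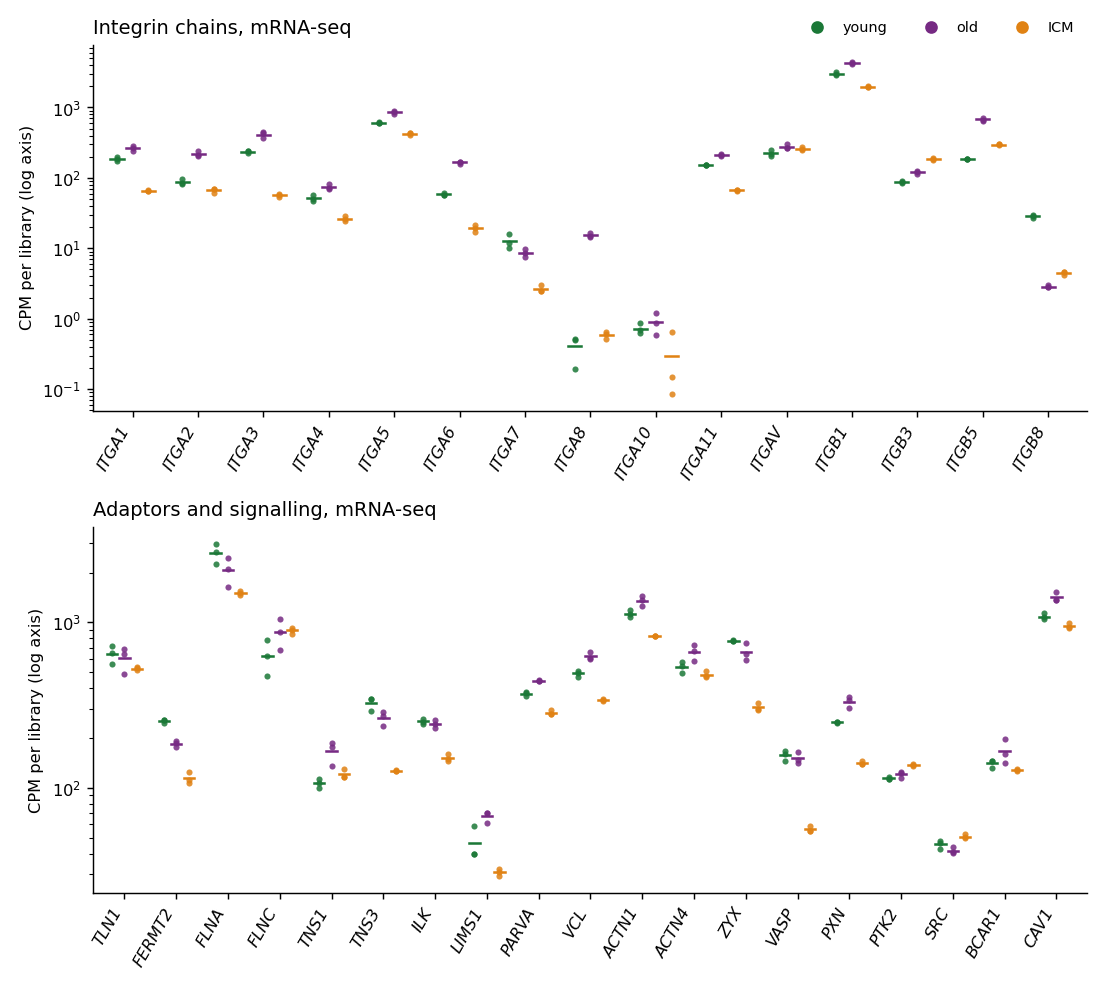
mRNA-seq levels of the 34 members in CPM on a log axis; each point is 1 library and each short line the mean of 3 libraries, for young, old and ICM-treated cells. Most integrin chains lie highest in old and lowest in ICM-treated cells, ITGB3 is highest with ICM, ITGA8 is near the bottom except in old cells, and ITGB8 is highest in young cells.

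The collagen-binding alpha chains were ITGA1, ITGA2 and ITGA11. ITGA1 mRNA stood at 176, 184 and 200.1 CPM in the young, 244, 266 and 281 in the old and 65.0, 64.6 and 66.2 in the ICM-treated libraries. The 3 conditions did not overlap, with a log2 change of -1.52 ± 0.07 (SE) with ICM and 0.50 ± 0.07 in old cells. ITGA11, an integrin typical of fibroblasts, followed it, at 154, 153 and 151 CPM in young, 217, 204 and 214 in old and 66.4, 67.5 and 65.0 in ICM-treated libraries, or -1.20 ± 0.06 and 0.47 ± 0.06 on the log2 scale. ITGA2 differed in its proportions, with a rise in old cells that was larger than its fall with ICM. It measured 81.2, 84.7 and 97.6 CPM in young, 214, 203 and 240.3 in old and 61.1, 70.0 and 69.3 in ICM-treated libraries, changes of -0.40 ± 0.08 with ICM (adjusted p = 0.000176) and 1.32 ± 0.08 in old cells (adjusted p = 2.16e-12). Counts of ITGA2 were not whole in 8 of the 9 mRNA-seq libraries.

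ITGA3 and ITGA6, the alpha chains of laminin receptors, were higher in old and lower in ICM-treated cells. ITGA3 mRNA was 225, 237 and 241 CPM in young, 429, 363 and 446 in old and 52.8, 57.6 and 59.5 in ICM-treated libraries. It fell by 2.05 on the log2 scale with ICM (SE 0.08) and rose by 0.81 ± 0.07 in old cells. ITGA6 mRNA was 57.2, 56.5 and 60.9 CPM in young, 168, 159.8 and 169 in old and 19.6, 17.2 and 21.2 in ICM-treated libraries. Every old library exceeded every ICM-treated library of ITGA6, and the log2 difference of ICM-treated from old cells was -3.09 ± 0.08 (adjusted p = 1.76e-19). ITGA7, the laminin receptor chain best known from muscle, was lower in both conditions. Its values were 11.8, 10.2 and 16.1 CPM in young, 8.49, 7.49 and 9.92 in old and 2.48, 2.50 and 3.05 in ICM-treated libraries, with log2 changes of -2.24 ± 0.19 with ICM and -0.57 ± 0.15 in old cells, the latter -0.35 ± 0.15 without young replicate 3.

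The alpha chains of fibronectin receptors were ITGA5, ITGA4 and ITGAV. ITGA5, which pairs with the beta 1 chain as the main fibronectin receptor, was at 616, 595 and 596 CPM in young, 854, 805 and 896 in old and 407, 438 and 435 in ICM-treated libraries. The log2 changes were -0.50 ± 0.06 with ICM and 0.50 ± 0.06 in old cells, with no overlap between conditions. ITGA4, whose receptors bind fibronectin and VCAM1, measured 47.7, 50.2 and 56.4 CPM in young, 68.6, 71.1 and 80.9 in old and 28.6, 24.8 and 25.7 in ICM-treated libraries. Its changes were -0.96 ± 0.09 and 0.51 ± 0.08. ITGAV, which joins several beta chains in receptors for vitronectin, fibronectin and latent TGF-beta, was the alpha chain called higher with ICM. Its libraries held 208, 221 and 253 CPM in young, 269, 269 and 300.1 in old and 256, 252 and 273 in ICM-treated cells, and the young and ICM-treated ranges overlapped by 1 young library. Its log2 change with ICM was 0.20 ± 0.07 (adjusted p = 0.0196). Omitting a single library raised the adjusted p to 0.106 (young replicate 1), 0.0785 (young replicate 2) or 0.0866 (ICM replicate 3), so the call of this small rise rests on single libraries, and without the 3 lysates that stood apart in footprints the change was 0.11 ± 0.08.

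ITGA8, the alpha chain of a receptor for nephronectin, was nearly absent outside old cells. It measured 0.496, 0.523 and 0.191 CPM in young libraries (4, 6 and 2 reads), 14.6, 14.9 and 16.7 in old libraries (136, 201 and 180 reads) and 0.601, 0.648 and 0.509 in ICM-treated libraries (8, 7 and 6 reads). The log2 change in old cells was 5.23 ± 0.22 (adjusted p = 6.9e-15), and with ICM it was 0.54 ± 0.46 (adjusted p = 0.336). ITGA8 passed the low-count filter through the old libraries alone. Its call in old cells, which is among the rises counted above, is therefore a description and no independent support. The gene lies on chromosome 10 from 15555953 to 15761921 on the minus strand (GRCh37, GENCODE 44). In the footprints it had 27 coding reads over the old libraries, 24 of them in replicate 1, and 0 in the young and in the ICM-treated libraries, too few to pass the filter.

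The 4 beta chains did not move together. ITGB1, the common partner of most alpha chains above, was at 2949, 2895 and 3221 CPM in young, 4274, 4496 and 4135 in old and 2028, 1974 and 1955 in ICM-treated libraries. It changed by -0.61 ± 0.06 with ICM and 0.51 ± 0.06 in old cells, on the log2 scale. ITGB5, a partner of ITGAV in a vitronectin receptor, rose in both conditions. Its mRNA was 188, 186 and 186 CPM in young, 716, 675 and 651 in old and 292, 299 and 298 in ICM-treated libraries, with no overlap, or 0.67 ± 0.06 with ICM and 1.87 ± 0.06 in old cells. It spans chromosome 3 from 124480795 to 124620265 on the minus strand.

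ITGB3, the other main partner of ITGAV in fibroblasts, was the chain with the larger rise with ICM. Its libraries held 87.6, 90.9 and 84.2 CPM in young, 126, 114 and 121 in old and 178, 189 and 183 in ICM-treated cells, so that every ICM-treated library was above every old one. The log2 changes were 1.07 ± 0.06 with ICM (adjusted p = 7.72e-13), 0.46 ± 0.06 in old cells and 0.61 ± 0.06 between ICM-treated and old cells (adjusted p = 1.12e-08). It lies on chromosome 17 from 45331193 to 45391109 on the plus strand. ITGB8, whose dimer with ITGAV binds latent TGF-beta, fell in both conditions. It measured 27.2, 28.3 and 30.03 CPM in young, 2.80, 2.82 and 2.97 in old and 4.21, 4.63 and 4.58 in ICM-treated libraries. The changes were -2.68 ± 0.11 with ICM and -3.32 ± 0.12 in old cells, and the ICM-treated libraries were 0.64 ± 0.17 above the old ones. Its counts were not whole in any of these 9 libraries. Its gene is on chromosome 7 from 20370325 to 20455377 on the plus strand.

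**Figure D2:**
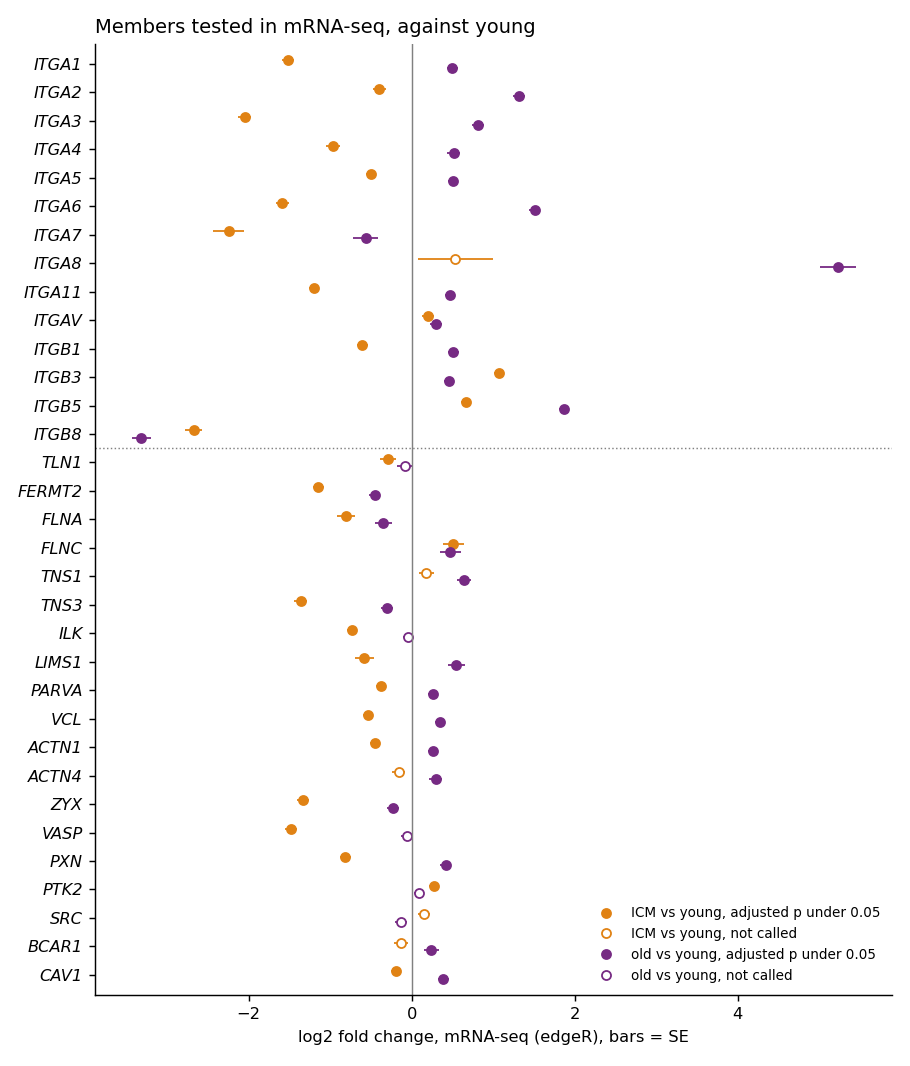
log2 fold changes in mRNA-seq against young cells for the 33 members tested, ICM-treated in orange and old in purple, with bars for the SE and open symbols where the adjusted p was not under 0.05; the dotted line separates integrin chains (above) from adaptors (below). Orange points lie mostly left of 0 and purple points mostly right of it, with ITGA8, ITGAV, ITGB3, ITGB5, FLNC, TNS1 and PTK2 to the right and ITGA7, ITGB8, TLN1, FERMT2, FLNA, TNS3, ILK, ZYX and VASP to the left in both, some of them as open symbols.

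To compare levels between genes, coding reads were divided by the coding length of the gene's representative transcript and by the library's total of coding reads, on the scale of CPM. On this density scale ITGB1 mRNA stood at 1595 ± 73.1 (SD, n = 3) in young cells, above ITGA5 at 232 ± 7.90 and ITGB5 at 103 ± 3.02. ITGA3 at 77.4 ± 5.32, ITGAV at 74.9 ± 3.01 and ITGA1 at 73.2 ± 5.57 came next and did not differ beyond their spread. ITGA11 followed at 47.8 ± 1.18 and ITGB3 at 30.4 ± 1.59, and then came ITGA2, ITGA6 and ITGA4 between 17.2 and 18.9, again within their spread. ITGB8 and ITGA7 were lower, at 7.33 and 5.22, and ITGA10 and ITGA8 lowest, at 0.198 and 0.0484.

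The order differed in the other conditions. In old cells ITGB5, at 352 ± 9.22, and ITGA5, at 314 ± 22.0, led the chains other than ITGB1, and ITGA3 came next at 129 ± 15.1. In ICM-treated cells ITGA5 at 173 ± 9.65 and ITGB5 at 166 ± 1.35 did not differ beyond their spread and were followed by ITGAV at 89.3 ± 3.99 and ITGB3 at 72.5 ± 3.07, with ITGA1 at 25.8 ± 0.960 and ITGA3 at 18.7 ± 2.22 well below them.

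The share of single chains in the summed mRNA density of their class also differed between conditions. These shares describe transcripts of separate chains and not assembled receptors. ITGAV held 13.3 ± 0.122 percent of the summed alpha chain density in young, 10.4 ± 0.272 in old and 24.7 ± 0.659 in ICM-treated cells (mean ± SD, n = 3). ITGA5 held 41.0 ± 0.682, 38.5 ± 0.335 and 47.8 ± 0.787 percent. ITGA3 held 13.7 ± 0.598, 15.8 ± 0.695 and 5.17 ± 0.387 percent, and ITGA1 held 12.95 ± 0.459, 12.2 ± 0.945 and 7.16 ± 0.223 percent. ITGA6 was larger in old cells, at 6.05 ± 0.148 percent, than in young (3.23 ± 0.162) or ICM-treated cells (1.77 ± 0.187).

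Among beta chains, ITGB1 held 91.9 ± 0.286 percent in young, 84.8 ± 0.415 in old and 82.3 ± 0.387 in ICM-treated cells. ITGB5 held 5.91 ± 0.0929, 13.6 ± 0.228 and 12.2 ± 0.182 percent and ITGB3 held 1.75 ± 0.165, 1.60 ± 0.181 and 5.34 ± 0.236 percent. The libraries of each pair of conditions did not overlap for any of these shares of ITGAV, ITGA5, ITGA3, ITGA6, ITGB1 or ITGB5. Each such difference had an exact two-sided permutation p of 0.10, the smallest that 3 against 3 libraries allow, so no share could pass 0.05. The ITGA1 share overlapped between old and young cells, and so did that of ITGB3.

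In footprints the shares of ITGAV differed in the same order, at 23.2 ± 3.13 percent in young, 13.3 ± 0.811 in old and 40.1 ± 5.79 in ICM-treated cells, again with no overlap. For ITGA5 they were 25.8 ± 0.0285, 27.7 ± 1.65 and 23.8 ± 3.42 percent, so that the old libraries lay above the young ones and the ICM-treated libraries overlapped both, unlike in mRNA-seq. ITGA3 held 16.6 ± 4.01, 20.7 ± 1.25 and 8.59 ± 5.12 percent, where the ICM-treated libraries lay below all others and the old and young ones overlapped. For ITGB1 the footprint shares were 92.6 ± 3.28, 88.9 ± 0.890 and 85.5 ± 2.53 percent, and the ICM-treated libraries lay below the young ones but overlapped the old ones, which overlapped the young ones. ITGB3 held 3.44 ± 1.60, 3.05 ± 0.717 and 8.51 ± 1.61 percent, highest in every ICM-treated library. ITGB5 held 3.54 ± 2.07, 7.78 ± 1.44 and 5.95 ± 1.29 percent, where the old libraries lay above the young ones and the ICM-treated libraries overlapped both. The smallest possible p of 0.10 applies here too.

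**Figure D3:**
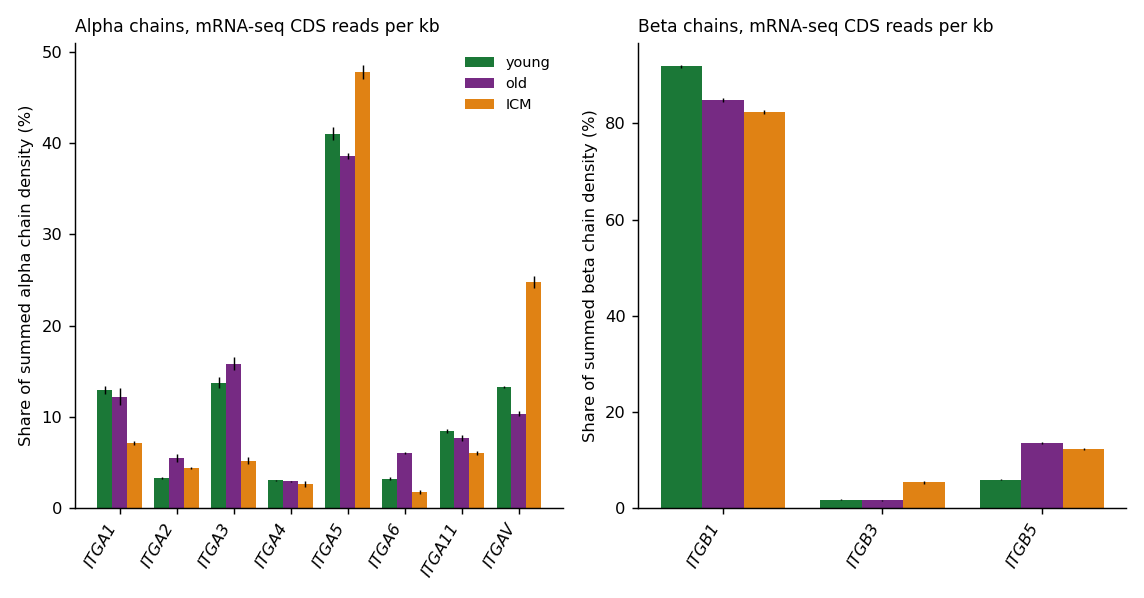
Share of each alpha chain (left) and beta chain (right) in the summed coding density of its class in mRNA-seq, in percent, as the mean of 3 libraries with SD bars; chains under 1% in all conditions are not drawn. ITGAV and ITGA5 take the largest shares with ICM, ITGA3 and ITGA6 take theirs in old cells, ITGB5 takes more in both conditions than in young cells, and ITGB3 takes most with ICM.

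Summed over the class, alpha chain density in mRNA-seq came to 565 ± 24.6 for young, 815 ± 61.1 for old and 361 ± 17.4 for ICM-treated cells, and beta chain density 1735 ± 74.1, 2601 ± 88.2 and 1357 ± 29.5. Without ITGB1 the beta chains went from 140.2 ± 1.22 in young to 395 ± 9.35 in old and 239.8 ± 4.14 in ICM-treated cells. The ratio of receptor to adaptor density was 0.534 ± 0.0203 in young and 0.549 ± 0.00660 in ICM-treated cells, whose libraries overlapped, and 0.775 ± 0.0414 in old cells, above every library of the others (exact two-sided permutation p = 0.10, the smallest possible). Footprints gave ratios of 0.423 ± 0.0418, 0.464 ± 0.0540 and 0.365 ± 0.0281 in the same order of young, old and ICM-treated cells, and the old libraries overlapped the young ones.

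Among the adaptors that bind integrin tails, FERMT2 and TNS3 fell furthest. FERMT2, or kindlin-2, an activator of integrins, was at 255, 247 and 255 CPM in young, 175, 191 and 186 in old and 111, 124 and 107 in ICM-treated libraries. It changed by -1.15 ± 0.07 with ICM and -0.46 ± 0.06 in old cells, with no overlap. TNS3, a tensin that joins integrins to actin, was at 292, 344 and 344 CPM in young, 270.5, 236 and 289 in old and 126, 126 and 129 in ICM-treated libraries, changes of -1.36 ± 0.08 and -0.30 ± 0.07. TNS1, another tensin, rose in old cells, with 99.3, 107 and 113 CPM in young, 176, 136 and 187 in old and 130.2, 116 and 116 in ICM-treated libraries. Its changes were 0.64 ± 0.09 in old cells (adjusted p = 2.11e-06) and 0.18 ± 0.09 with ICM (adjusted p = 0.0847).

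The filamins, long rods that crosslink actin and bind beta tails, went opposite ways. FLNA measured 2251, 2660.1 and 2991 CPM in young, 2107, 1640.0 and 2452 in old and 1512, 1462 and 1544 in ICM-treated libraries. Every ICM-treated library was below every young one, with a change of -0.81 ± 0.11, while old and young libraries overlapped (-0.35 ± 0.11, adjusted p = 0.00586, and 0.0513 without young replicate 3 or 0.06 by DESeq2). Without old replicate 2 this change was -0.21 ± 0.09. FLNC, the muscle filamin, measured 475, 624 and 782 CPM in young, 878, 685 and 1054 in old and 898, 852 and 931 in ICM-treated libraries. Its changes were 0.51 ± 0.13 with ICM and 0.47 ± 0.13 in old cells, and its old and young libraries overlapped. Without old replicate 3 the latter was 0.32 ± 0.12. Both filamins had non-whole counts in 8 or more libraries of either assay, as had ITGB8 (9 libraries), ITGA2, TNS1, LIMS1 and BCAR1 (8 each) in mRNA-seq and ACTN4 (9) in footprints. How such counts arose was not tested, and the values of these genes are less certain. TLN1, talin, was at 485 to 719.6 CPM over the 9 libraries, with a change of -0.29 ± 0.10 with ICM (adjusted p = 0.0107, and 0.0758 without young replicate 3 or 0.0817 by DESeq2) and -0.09 ± 0.10 in old cells (adjusted p = 0.46).

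All 3 genes of the ILK complex fell with ICM. LIMS1, which encodes the adaptor PINCH1, was at 39.6, 39.7 and 58.8 CPM in young, 61.3, 70.0 and 70.7 in old and 32.1, 29.1 and 31.1 in ICM-treated libraries. It changed by -0.58 ± 0.12 with ICM, or -0.36 ± 0.09 without young replicate 3 and by 0.55 ± 0.11 in old cells. PARVA, or alpha-parvin, was at 379.7, 361 and 373 CPM in young, 441, 447 and 445 in old and 295, 279.8 and 281 in ICM-treated libraries, changes of -0.38 ± 0.06 and 0.26 ± 0.06. On coding reads alone the rise of PARVA in old cells was 0.08 ± 0.06 (adjusted p = 0.282). ILK, the pseudokinase at the centre of the complex, ranged from 145 to 262 CPM and changed by -0.74 ± 0.06 with ICM and -0.05 ± 0.06 in old cells (adjusted p = 0.54).

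Of the proteins that tie adhesions to actin, VASP and ZYX fell most with ICM. VASP, which promotes actin filament growth, was at 166, 161 and 145 CPM in young, 148, 140.4 and 163 in old and 58.5, 55.0 and 55.1 in ICM-treated libraries. The change with ICM was -1.48 ± 0.07, and the old and young libraries overlapped (-0.06 ± 0.07, adjusted p = 0.437). ZYX, or zyxin, which marks mature adhesions under tension, was at 772, 783 and 773 CPM in young, 648, 589 and 751 in old and 301, 295 and 325 in ICM-treated libraries. It changed by -1.34 ± 0.08 with ICM and by -0.23 ± 0.07 in old cells, the latter with an adjusted p of 0.00903, and of 0.0608 without old replicate 2 (change -0.15 ± 0.07).

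VCL and ACTN1 moved less and in opposite directions with ICM and in old cells. VCL, vinculin, was at 469, 495 and 511 CPM in young, 611, 601 and 663 in old and 343, 337 and 334 in ICM-treated libraries, changes of -0.54 ± 0.06 and 0.35 ± 0.06. ACTN1, the alpha-actinin of stress fibres, was at 1078, 1131 and 1185 CPM in young, 1362, 1258 and 1446 in old and 826, 832 and 830.3 in ICM-treated libraries, changes of -0.45 ± 0.06 and 0.26 ± 0.06. ACTN4, its close relative, ranged from 466 to 735 CPM, and it rose by 0.29 ± 0.08 in old cells but gave -0.16 ± 0.08 with ICM (adjusted p = 0.0697).

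Among the signalling members PXN changed most. PXN, the scaffold paxillin, was at 249, 250.4 and 245 CPM in young, 338, 302 and 353 in old and 139, 146 and 139 in ICM-treated libraries, so the conditions did not overlap. Its changes were -0.81 ± 0.07 with ICM and 0.41 ± 0.06 in old cells. CAV1, caveolin 1, which binds integrins and organises caveolae, had the highest density of the adaptor genes, and was at 1045, 1072 and 1136 CPM in young, 1360.1, 1529 and 1363 in old and 933, 992 and 924 in ICM-treated libraries. It rose by 0.39 ± 0.07 in old cells, and with ICM it gave -0.19 ± 0.07 (adjusted p = 0.012, but 0.0526 without young replicate 3, 0.0559 without ICM replicate 1, 0.0565 without ICM replicate 3 and 0.0847 on coding reads alone).

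The kinases changed little. PTK2, focal adhesion kinase, ranged from 113 to 139.7 CPM, with 0.27 ± 0.06 with ICM (adjusted p = 0.000381) and 0.08 ± 0.06 in old cells (adjusted p = 0.233). SRC ranged from 40.0 to 52.6 CPM and passed the test only between ICM-treated and old cells, at 0.29 ± 0.07. BCAR1, the scaffold p130Cas, was at 131, 146 and 145 CPM in young, 161, 141 and 198 in old and 126, 129 and 129.7 in ICM-treated libraries. Old and young libraries of BCAR1 overlapped, and its rise of 0.24 ± 0.09 in old cells (adjusted p = 0.0185) had an adjusted p of 0.0711 without young replicate 1 and of 0.229 without old replicate 3 (change 0.097).

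Short stretches of promoter are shown because most members moved together, and the windows show which of 3 motifs of mechanical and growth signalling their start regions hold. The RefSeq windows (GRCh38.p14) span 250 bases before to 50 after a transcription start, and 28 of the 34 members had 53 windows. The CArG box of serum response factor was found in 2 of these windows (3.77%) against 1.29% of all 35116 windows. The TEAD motif GGAATG, on either strand, was in 9 (17.0%) against 14.0%, and the AP-1 motif TGANTCA in 4 (7.55%) against 7.71%. No overlap between matches of different motifs was seen in the sequences shown, where capitals mark the match and each is read 5′ to 3′ on the gene's strand.
ACTN1 CArG box, chr14:68977718-68977747, minus strand: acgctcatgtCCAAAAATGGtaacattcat
FLNA CArG box, chrX:154374709-154374738, minus strand: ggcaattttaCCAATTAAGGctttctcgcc
ITGB1 TEAD motif, chr10:32958397-32958422, minus strand: cggcgggagaGGAATGcgtttccgga
VCL TEAD motif, chr10:73997935-73997960, plus strand: ccctcccttaGGAATGggggaggggc
ITGA5 TEAD motif, chr12:54419333-54419358, minus strand: cagggacccaGGAATGcccccccgcc
PXN TEAD motif, chr12:120250215-120250240, minus strand: tttccaggaaCATTCCtcttccttag
ITGA5 AP-1 motif, chr12:54419256-54419282, minus strand: ctccccgcgtTGAGTCAttcgcctctg

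The genes shown are a selection. ITGA10, TNS1, FLNC and ACTN1 also held a TEAD match and LIMS1, BCAR1 and ACTN4 an AP-1 match. FLNC mRNA differed by 0.04 ± 0.13 between ICM-treated and old cells (adjusted p = 0.827), so nothing is read from the changes of the genes shown. The start of the CArG match lay 171 bases before the ACTN1 start and 94 bases before the FLNA start. A match of letters is a description of these windows and no measurement of binding.

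Footprints in coding sequences were examined next, to ask whether the ribosome occupancy of the members followed their mRNA. The filter kept 28 members, without ITGA7, ITGA8, ITGA10, ITGB8, LIMS1 and SRC. With ICM, 8 members fell and 3 rose, where 12.9% of the 4643 genes tested fell and 13.7% rose. In old cells 12 rose and 1 fell, where 19.3% of all genes rose and 17% fell. Between ICM-treated and old cells 12 were lower and 1 higher, against 7.62% and 5.79% of all genes. Without the 3 lysates that stood apart, 12 fell and 2 rose with ICM, where 13.8% of the 8007 genes then tested fell and 9.5% rose. In old cells 13 then rose and 2 fell (16.8% and 15.8% of all genes), and 20 were lower and 0 higher in ICM-treated than in old cells (7.81% and 4.15%). The median log2 change over the 28 members was -0.25 with ICM, 0.36 in old cells and -0.56 between ICM-treated and old cells, where all genes had medians of -0.00045, 0.017 and -0.022.

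By class, 3 of 11 receptors fell and 3 rose with ICM, 6 rose and 0 fell in old cells, and 8 were lower and 1 higher in ICM-treated than in old cells. Of 17 adaptors 5 fell and 0 rose with ICM, 6 rose and 1 fell in old cells, and 4 were lower and 0 higher in ICM-treated than in old cells.

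Footprints of the laminin and collagen receptor chains fell with ICM or rose in old cells. ITGA3 footprints were 456, 326 and 347 CPM in young, 701, 563 and 778 in old and 143, 68.2 and 343 in ICM-treated libraries. The highest ICM-treated value, in replicate 3, overlapped the young libraries, and the log2 changes were -1.16 ± 0.30 with ICM, 1.02 ± 0.21 in old cells and -2.18 ± 0.29 between ICM-treated and old cells (adjusted p = 3.91e-07). Without the 3 lysates these were -1.57 ± 0.27, 1.14 ± 0.16 and -2.71 ± 0.26. ITGA1 footprints were 178, 406 and 450.5 CPM in young, 385, 322 and 425 in old and 148, 54.6 and 297 in ICM-treated libraries, and young replicate 1 lay below ICM replicate 3. The change with ICM was -1.43 ± 0.31, or -1.92 ± 0.28 without the 3 lysates. In old cells ITGA1 footprints gave -0.02 ± 0.22 (adjusted p = 0.947) where its mRNA had risen.

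ITGA2 footprints were 139, 239.7 and 249 CPM in young, 522, 503 and 564 in old and 256, 205 and 274 in ICM-treated libraries. Old libraries lay above all others, a rise of 1.19 ± 0.19, and the change with ICM was 0.06 ± 0.25 (adjusted p = 0.879). ITGA6 footprints were 99.0, 87.9 and 91.6 CPM in young, 207, 60.4 and 164 in old and 64.1, 0 and 68.5 in ICM-treated libraries, where ICM replicate 2 held 0 reads. The rise of ITGA6 in old cells was 0.99 ± 0.25, with old replicate 2 below the young libraries, and 1.09 ± 0.22 without the 3 lysates. ITGA11 footprints were 119, 125 and 140.0 CPM in young, 213, 282 and 211 in old and 103, 123 and 91.3 in ICM-treated libraries. They rose in old cells by 0.71 ± 0.20 and gave -0.32 ± 0.31 with ICM (adjusted p = 0.482).

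ITGA5 footprints were 555, 589.7 and 629.9 CPM in young, 1042, 765 and 915 in old and 478, 437 and 479.5 in ICM-treated libraries. No library overlapped between conditions, and the changes were 0.64 ± 0.17 in old cells (adjusted p = 0.00346) and -0.37 ± 0.20 with ICM (adjusted p = 0.188). Without the 3 lysates the ITGA5 change with ICM was -0.49 ± 0.18 (adjusted p = 0.0471 by edgeR). ITGAV footprints ran the other way, with 574, 497 and 513 CPM in young, 494, 342 and 472 in old and 695, 778 and 891 in ICM-treated libraries, every ICM-treated library above the rest. Their rise with ICM of 0.57 ± 0.20 (adjusted p = 0.0286) was no longer called when any 1 of the 9 lysates was left out, at 0.42 to 0.58 on the log2 scale with adjusted p from 0.0609 to 0.211. Without the 3 lysates it was 0.42 ± 0.17 (adjusted p = 0.0783).

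Among beta chains, ITGB1 footprints were 2377, 3901 and 4008 CPM in young, 4328, 3541 and 4212 in old and 2414, 2114 and 2238 in ICM-treated libraries. Young replicate 1 was the young library that overlapped the ICM-treated ones, and the fall was -0.63 ± 0.17, or -0.89 ± 0.12 without the 3 lysates. ITGB3 footprints were 139, 117 and 92.9 CPM in young, 159, 141 and 105 in old and 222, 259 and 183 in ICM-treated libraries, every ICM-treated library above the rest, a rise of 1.11 ± 0.29 with ICM. ITGB5 footprints were 158, 107 and 89.1 CPM in young, 425, 241 and 406 in old and 197, 164 and 114 in ICM-treated libraries. They rose by 2.00 ± 0.21 in old cells, with no overlap, and by 0.81 ± 0.30 with ICM (adjusted p = 0.0427), where the libraries overlapped and the call was lost with any lysate but ICM replicate 3 left out (adjusted p 0.0531 to 0.574). The change was 0.44 ± 0.46 without ICM replicate 1 and 0.51 ± 0.38 without young replicate 3. ITGB8 had 62 footprints over the young libraries, 9 over the old and 1 over the ICM-treated ones, and ITGA7 had 47, 37 and 0.

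**Figure D4:**
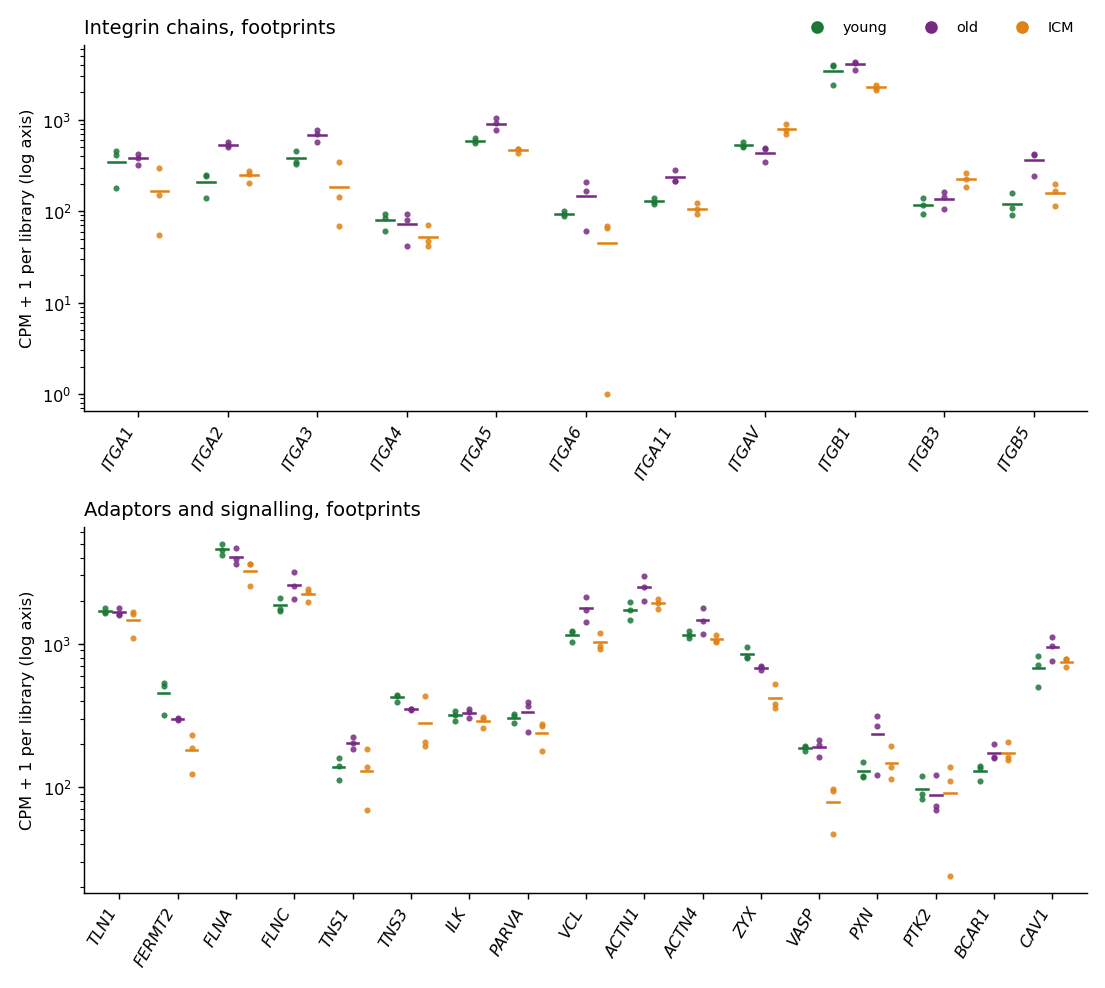
Footprint levels of the 28 members tested, in CPM plus 1 on a log axis; each point is 1 library and each short line the mean of 3 libraries, for young, old and ICM-treated cells. Points of 1 condition spread more than in mRNA-seq, ITGAV is highest with ICM, and ITGA2, ITGA5 and ITGB5 are highest in old cells.

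Among adaptors, FERMT2 footprints were 317, 535 and 504 CPM in young, 291, 302 and 296 in old and 187, 123 and 228 in ICM-treated libraries. They fell in both conditions with no overlap, with changes of -1.47 ± 0.26 with ICM and -0.74 ± 0.19 in old cells. ZYX footprints were 951, 798 and 811 CPM in young, 698, 684 and 657 in old and 355, 382 and 525 in ICM-treated libraries, a change of -1.07 ± 0.21 with ICM. VASP footprints were 178, 190.2 and 193 CPM in young, 213, 161 and 197 in old and 93.6, 95.5 and 45.7 in ICM-treated libraries, a change of -1.13 ± 0.31. For ZYX and VASP no ICM-treated library reached the young ones. TNS3 footprints were 436, 393 and 433 CPM in young, 348, 342 and 351 in old and 192, 205 and 434 in ICM-treated libraries, where ICM replicate 3 reached the young level. The TNS3 change was -0.81 ± 0.25, and -1.18 ± 0.24 without the 3 lysates. FLNA footprints were 4139.7, 4517 and 4993 CPM in young, 3913, 3622 and 4653 in old and 2542, 3588 and 3585 in ICM-treated libraries, a change of -0.52 ± 0.17.

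The adaptor footprints that rose in old cells were those of VCL, PXN, ACTN1, FLNC, TNS1 and BCAR1. VCL footprints were 1030.0, 1213 and 1229.9 CPM in young, 1732, 1429 and 2128 in old and 966, 914 and 1187 in ICM-treated libraries, with 0.61 ± 0.17 in old cells. PXN footprints were 119, 117 and 149 CPM in young, 265, 121 and 309.9 in old and 113, 191 and 137 in ICM-treated libraries. Old replicate 2 lay within the young range of PXN, and its change was 1.00 ± 0.21 in old cells and 0.02 ± 0.32 with ICM (adjusted p = 0.969). ACTN1 footprints were 1466, 1715 and 1958 CPM in young, 2502, 1992 and 2947 in old and 2059.6, 1759.7 and 1918 in ICM-treated libraries, with 0.53 ± 0.16 in old cells and 0.14 ± 0.17 with ICM (adjusted p = 0.602).

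For FLNC, TNS1 and BCAR1 the changes in old cells were 0.50 ± 0.17, 0.59 ± 0.21 and 0.59 ± 0.21. FLNC footprints were 1703, 1753 and 2091 CPM in young, 2534, 2052 and 3175 in old and 2286, 2414 and 1964 in ICM-treated libraries. TNS1 footprints were 158, 110.3 and 140.0 CPM in young, 201, 221 and 183 in old and 182, 136 and 68.5 in ICM-treated libraries, a rise with no overlap. BCAR1 footprints, also apart, were 139, 136 and 109 CPM in young, 199.8, 161 and 158 in old and 153, 205 and 159.8 in ICM-treated libraries. The old and young libraries of FLNC overlapped. The remaining adaptors tested (TLN1, ILK, PARVA, ACTN4, PTK2 and CAV1) passed the test in no footprint comparison.

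Many footprint calls rested on single lysates. With each lysate left out in turn, 4 of the 11 calls with ICM stayed under every omission (ITGA1, FERMT2, ZYX and VASP), as did 3 of the 13 in old cells (ITGA2, ITGA3 and ITGB5) and 8 of the 13 between ICM-treated and old cells (ITGA1, ITGA2, ITGA3, ITGA5, ITGB1, ITGB5, VCL and VASP). For ICM against young the number of members called went down to 5 when young replicate 3 was omitted and was 10 when ICM replicate 3 was. For old against young it went down to 3 on omitting young replicate 2 and up to 14 on omitting old replicate 2, and for ICM against old from 9 (old replicate 1) to 15 (old replicate 2). The share of all genes that kept a call under these omissions was not computed, so the counts describe the members alone. Of the calls kept, DESeq2 on all libraries lost that of VASP between ICM-treated and old cells (adjusted p = 0.06).

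Among the other calls with ICM, ITGA3 was lost without ICM replicate 1 (adjusted p = 0.0507), ITGB1 without young replicate 3 (0.0613), and ITGB3 without young replicate 3 (0.131) or ICM replicate 1 (0.0677). TNS3 was lost on omitting the same libraries (0.095 and 0.22), and FLNA on omitting young replicate 2 (0.0501), young replicate 3 (0.101) or ICM replicate 1 (0.165). The omissions that ended the calls of ITGAV and ITGB5 are given above. Among the calls in old cells, PXN was lost without young replicate 2 (0.0809) and FERMT2 without young replicate 2 (0.0897) or 3 (0.0711). ITGA5, ITGA6 and ITGA11 were each lost without young replicate 2, young replicate 3 or old replicate 1, with adjusted p from 0.055 to 0.256, and the ITGA6 change was 0.62 ± 0.37 without old replicate 1. VCL was lost without young replicate 2 (0.0676), young replicate 3 (0.0554) or old replicate 3 (0.148). ACTN1, FLNC, TNS1 and BCAR1 were each lost under 4 or 5 of the omissions, among them young replicate 2, old replicate 1 and old replicate 3, with adjusted p from 0.0505 to 0.521. Without old replicate 3 the change was 0.35 ± 0.19 for ACTN1 and 0.28 ± 0.19 for FLNC. That of BCAR1 was 0.33 ± 0.29 without old replicate 1 and 0.35 ± 0.32 without young replicate 3, and that of TNS1 ran from 0.41 ± 0.31 without young replicate 2 to 0.68 ± 0.34 without young replicate 3.

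Between ICM-treated and old cells, ITGA6 was lost without old replicate 1 (0.0603) and was -2.93 ± 0.70 without ICM replicate 1, against -1.86 ± 0.43 with all libraries. ITGA11 and ZYX were lost without old replicate 1 (0.0533 and 0.0688) or ICM replicate 1 (0.117 and 0.104). ITGAV was lost without old replicate 2 (0.124), ICM replicate 1 (0.0688) or ICM replicate 3 (0.0909), and PXN without any of young replicates 2 and 3, old replicates 1 and 3 and ICM replicate 1 (0.0663 to 0.219). All these adjusted p-values come from edgeR.

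Translational efficiency, the ratio of footprints to mRNA, was tested in 1 model of all 18 libraries that paired both libraries of a lysate, as the difference between the footprint and mRNA changes. None of the 28 members passed the test in any comparison (edgeR, adjusted p under 0.05), where 2.45% of the 4618 genes tested did with ICM, 1.45% in old cells and 0.26% between ICM-treated and old cells. At an unadjusted p under 0.05 there were 9 members with ICM, 1 in old cells and 4 between ICM-treated and old cells, all higher, where 9.61%, 8.96% and 5.13% of all genes tested were higher at that p. DESeq2 called 1, 0 and 1 of the members, against 1.99%, 0.888% and 0.455% of all genes. The median log2 change of the ratio was 0.28 with ICM, 0.09 in old cells and 0.21 between ICM-treated and old cells, where all genes had 0.063, 0.054 and -0.0020.

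The members with the lowest p-values were as follows. The ratio of ACTN1 was 0.60 ± 0.17 higher with ICM on the log2 scale (adjusted p = 0.0572, and 0.0136 by DESeq2), where its mRNA had fallen and its footprints had not passed the test. The ratio of ITGA3 was 0.94 ± 0.32 higher with ICM (adjusted p = 0.115). Between ICM-treated and old cells the ratio of ITGAV was 0.77 ± 0.20 higher (adjusted p = 0.0756, and 0.0409 by DESeq2). In old cells the ratio of PXN was 0.60 ± 0.22 higher (adjusted p = 0.201). Without the pairing by lysate, edgeR called the ratios of ACTN1 and ILK higher with ICM (adjusted p = 0.0309 and 0.0493). That fit also called ITGA1 lower (0.0416) and PXN higher (0.0151) in old cells. ITGAV was then higher in ICM-treated than in old cells (0.0258). The share of all genes called without the pairing was not computed. With an SE of 0.17 to 0.54 for the ICM comparison, only large differences in this ratio were detectable at the depth of the footprints.

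**Figure D5:**
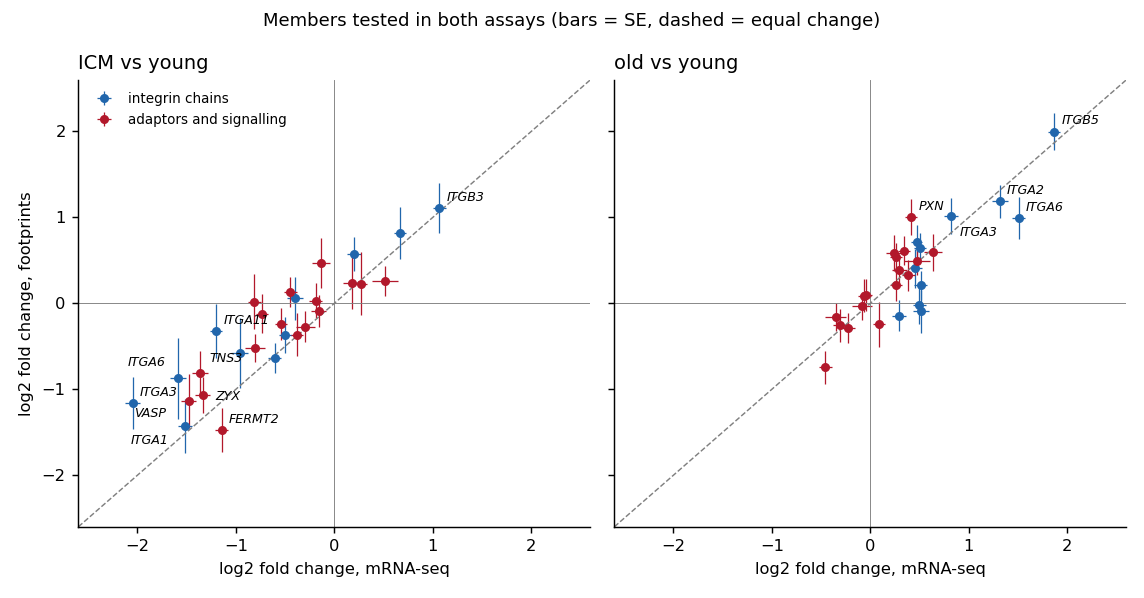
log2 fold change of footprints against that of mRNA for the 28 members tested in both assays, ICM-treated against young on the left and old against young on the right, with SE bars and a dashed line for equal change; integrin chains are blue and adaptors red. With ICM 23 of the 28 points lie above the dashed line and in old cells 17 do, where 54.6% and 55.5% of all genes tested had a higher ratio, and ITGB5 is the highest point on the right.

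By transcript part, the members' mRNA-seq reads fell 72.8% to 77.9% in coding sequence, 3.14% to 4.98% in 5′ UTRs and 18.3% to 24.04% in 3′ UTRs over the 9 libraries, against 61.9% to 65.6%, 9.25% to 13.5% and 24.6% to 28.9% over all genes. Of the members' footprints 87.6% to 99.7% lay in coding sequence, against 40.6% to 95.8% over all genes.

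Most of the listed integrin ligand genes that were tested fell with ICM as well. Of 28 listed integrin ligands, 27 were tested in mRNA-seq, of which 20 fell and 3 rose with ICM (median log2 change -0.90), and 11 fell and 10 rose in old cells (median -0.04). Over all genes tested, 36.1% fell and 34.9% rose with ICM, and 33.7% fell and 32.4% rose in old cells. TNC, VCAM1, POSTN and COL6A3 fell furthest, with log2 changes of -3.13, -3.12, -2.57 and -2.53. POSTN, periostin, was at 478 ± 26.02 CPM (SD, n = 3) in young, 8.51 in old and 80.7 in ICM-treated cells. The 3 rises were SPP1, CCN2 and LAMA2. SPP1, osteopontin, a ligand of ITGAV receptors, was at 0.331 ± 0.270 CPM in young, 0.194 ± 0.124 in old and 191 CPM in ICM-treated cells. SPP1 passed the low-count filter through the ICM-treated libraries alone, so its rise is a description and no independent support. CCN2, a matricellular ligand of ITGAV and ITGB3, rose by 1.13 ± 0.09 with ICM and 1.48 ± 0.09 in old cells.

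Of 44 other adhesion components, 43 were tested, of which 20 fell and 10 rose with ICM (median -0.18) and 11 fell and 19 rose in old cells (median 0.13). Of all genes tested, 36.1% fell and 34.9% rose with ICM, and 33.7% fell and 32.4% rose in old cells. The largest falls with ICM were those of TGFB1I1, the paxillin relative Hic-5, at -2.07 ± 0.07, NEDD9 at -1.87 ± 0.11, LIMS2 at -1.78 ± 0.09 and PDLIM7 at -1.52 ± 0.08. NEDD9 and LIMS2, relatives of BCAR1 and LIMS1, rose in old cells by 1.42 ± 0.08 and 1.03 ± 0.08. The rises with ICM were led by KANK1 at 1.08 ± 0.07, which links talin to microtubule capture sites, and PTK2B, the relative of focal adhesion kinase, at 1.05 ± 0.14, followed by PARVG and YES1 at 0.81 ± 0.13 and 0.67 ± 0.07. Of 12 other integrin genes 2 were tested, and ITGBL1, a secreted protein with integrin-like repeats, fell by 0.96 on the log2 scale with ICM.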

How the data were processed

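The authors sequenced ribosome footprints and poly(A) mRNA from the same lysates and deposited, for each library, estimated counts per gene for the 5′ UTR, the coding sequence and the 3′ UTR. Some estimated counts were not whole and were rounded. The submitters' processing notes list GRCh37, STAR 2.6.0c, featureCounts, DESeq2 and deepTools, and which of these made the tables is not given in the sources used here.

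mRNA-seq counts were summed over the 3 parts and footprints were counted in coding sequence. Counts were fitted with the quasi-likelihood test of edgeR 4.0.16 in R 4.3.3 over the 9 libraries of an assay, with trimmed-mean scaling, the default low-count filter and Benjamini-Hochberg adjustment over all genes. Translational efficiency was the assay by condition interaction over 18 libraries, with the lysate as a block because the study's methods state that both libraries came from 1 lysate. The study's own tool for this ratio was not used here. Calls had an adjusted p under 0.05. Standard errors came from the test statistic, and each fit was tested on simulated data. Densities used the coding length of the representative GENCODE 44 transcript on GRCh37, in place of the protein table planned, and shares were compared with exact permutation tests (SciPy 1.17.1). DESeq2 1.42.0 and other settings served as alternatives.

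The members and lists were chosen with earlier results of these data known. Values in every library are given for members with a called mRNA change over 0.6 and no overlap (at most 12, at least 5 CPM on average), for those called in footprints, and for those called in opposite directions with ICM and in old cells. Of each other list, at most 4 rises and 4 falls are named. Few reads limit the precision of low footprint values, since 1 read equals 0.570 to 20.7 CPM in the footprint libraries. The samples of a condition were independent replicates of single isolates, per the study's methods, so p-values cover the spread between these only.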

Additional observations from a re-analysis of the deposited data

How the results depend on the processing

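Of 33 members tested in mRNA-seq, 28 were called with ICM, 28 in old cells and 30 between ICM-treated and old cells. Leaving out 1 lysate at a time gave 26 to 30, 27 to 28 and 30 to 31. With mRNA-seq thinned to the depth of the footprints 18 and 18 were called against young cells, and ITGAV with ICM turned to -0.0061 (adjusted p = 0.984 by edgeR). A minimum log2 change of 0.6 left 17 with ICM and 7 in old cells. Of 28 members tested in footprints, 11 were called with ICM, 13 in old cells and 13 between ICM-treated and old cells. Leaving out 1 lysate gave 5 to 10, 3 to 14 and 9 to 15, and leaving out the 3 lysates that stood apart gave 20 in the last. DESeq2 called 6 in old cells. The replicate block gave 7 with ICM and 8 in old cells. Deviations of same-numbered libraries correlated from -0.0928 to 0.129 in mRNA-seq and from 0.0021 to 0.0387 in footprints. For libraries with different numbers the deviations correlated from -0.156 to 0.132 and from -0.0441 to 0.0209. Between the footprint and mRNA-seq libraries of 1 lysate, the pair that the model of translational efficiency blocks, they correlated from -0.0711 to 0.119. Since a known pair gave values as low, these correlations cannot settle whether replicate numbers pair the samples. For translational efficiency 0 members were called in any comparison, and 0 with any lysate left out. DESeq2 called 1 with ICM and 1 between ICM-treated and old cells, and the fit with no replicate block called 2, 2 and 1. An adjusted p under 0.15 gave 2 with ICM and 1 between ICM-treated and old cells. Under most of these settings the share of all genes called was not computed, so the counts describe the members alone. Over single members and settings, 1770 mRNA values stayed on the same side of the threshold, 75 lost their call and 25 gained one. In footprints these were 1285, 113 and 27. Of the 75 lost mRNA calls, 39 came with the minimum log2 change of 0.6, which left the fit unchanged, and 19 with the thinned reads. Shares not divided by coding length moved by more than the replicate SD in 20 of 90 cases. Omitting 1 of 3 libraries cannot move a mean by more than that SD. This measure therefore cannot show how the shares depend on the 3 lysates. Why single calls or shares shifted under a given setting was not tested, and the depth of the footprint libraries limits what the footprint settings can show.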
